A study of Mus musculus with 2 samples.

Results

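The 9 genes that encode the AMPA receptor subunits (Gria1, Gria2, Gria3 and Gria4) and the kainate receptor subunits (Grik1, Grik2, Grik3, Grik4 and Grik5) were followed through the cells of the mouse trigeminal ganglion (TG). They were taken by symbol, as 9 of the 39098 gene symbols in the files, and the rule for taking them uses no measured value. Single-cell RNA sequencing on the BD Rhapsody system was performed on right TGs of male C57BL/6 mice aged 5 to 8 weeks, 7 days after an injection into the right vibrissal pad. The control mice received saline by the study's methods, while the sample label calls them untreated. The CFA mice received 20.0 μL of CFA (complete Freund's adjuvant, an oil with killed mycobacteria that causes lasting inflammation) mixed with saline. There was 1 library per condition, and how many mice were pooled in a library was not stated, so the difference between conditions had no replicate check and no p-value was computed. No transgene and no sort of cells is described for either group.

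The control library held 7298 cells and 48916096 UMIs (unique molecular identifiers, each counting 1 captured RNA molecule), and the CFA library held 4080 cells and 22096268 UMIs. Of these, 6695 control cells and 3661 CFA cells had at least 150 genes with no more than 25% of counts mitochondrial and were used. The libraries shared 27 cell barcodes. Raw UMIs of marker genes placed 712 control neurons and 350 CFA neurons in 9 classes, with a median depth of 47316 and 40508 UMIs per neuron. Of 32 check markers that were not used to place cells, 27 (control) and 26 (CFA) were highest in the class they mark. Neuron markers were ranked among neuron classes only, and glial markers without the neurons. Across all cells some were higher elsewhere, as Ntrk2 had 98.7 and 175 CPM in Nefh A-fibre neurons and 830 and 830 CPM in satellite glia. No check marker was counted for the peptidergic or the background classes. The exceptions in satellite glia were Kcnj10 and Glul, which were higher in the oligodendrocyte-like cells. The neuron marker Tubb3 stood at 2017 and 1992 CPM in neurons, and at 81.1 and 35.4 CPM in immune cells, which do not make it. Tubb3 UMIs in such cells are read as free RNA from neurons, and immune, endothelial and fibroblast cells serve as the background of each gene.

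The neuron classes were nonpeptidergic Mrgprd neurons (156 control and 61 CFA cells), Mrgpra3 itch neurons (45 and 12), Sst/Nppb itch neurons (13 and 10), Trpm8 neurons (49 and 24) and C-fibre low-threshold mechanoreceptors, called cLTMR (70 and 46). Neurons in none of these were split into Nefh A-fibre neurons (15 and 6), Nefh peptidergic neurons (6 and 5) and peptidergic C neurons with at least 3 UMIs of Sstr2 (Sstr2+, 96 and 63) or with fewer (Sstr2-, 262 and 123). A further 97 control and 62 CFA neurons met no rule and were left out of all levels. They were shallower, with median depths of 8410 and 10112 UMIs. The Trpm8 class also carried the large-fibre marker Nefh, at 1324 and 1467 CPM, and had the highest Pvalb of the 9 classes, at 173 and 161 CPM, so it was not a pure class of thin cold fibres. Just below the Sstr2 threshold, at 2 UMIs, stood 34 control and 7 CFA neurons, and just above it, at 3 UMIs, 23 and 11.

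AMPA receptors are the glutamate-gated channels that carry most fast excitatory transmission in the nervous system, and each is built from several subunits. The Gria2 subunit, whose RNA is edited at a site in the pore, keeps calcium from passing the channels that contain it. Among kainate receptors, the products of Grik1, Grik2 and Grik3 form channels on their own, whereas those of Grik4 and Grik5 bind glutamate more tightly and need one of the former as a partner. In sensory neurons kainate receptors are known on the axon terminals, where they tune transmitter release, and the satellite glia around each cell body take up glutamate.

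The genes lay on 8 chromosomes of GRCm38 and were long, from 62.50 kb for Grik5 (chr7:25009849-25072346) to 693.9 kb for Grik2 (chr10:49094833-49788766). Grik1 (chr16:87895900-88290265) spanned 394.4 kb, Gria1 (chr11:57011387-57330244) 318.9 kb and Grik3 (chr4:125490700-125714173) 223.5 kb. No gene of the files shared an exon with a member on the same strand in GENCODE M21. Promoters in RefSeq on GRCm38.p6 were matched for 6 of the 9 members (Gria2, Gria4, Grik2, Grik3, Grik4 and Grik5). The 250 bases before the start of Gria2 (chr3:80802836-80803085, minus strand) and of Grik3 (chr4:125490446-125490695, plus strand) are shown, as Gria2 was near background in satellite glia and Grik3 was highest there, a choice made after the values were seen. Capitals mark the box GGGCGG, searched on both strands, whose reverse reads CCGCCC.
Gria2: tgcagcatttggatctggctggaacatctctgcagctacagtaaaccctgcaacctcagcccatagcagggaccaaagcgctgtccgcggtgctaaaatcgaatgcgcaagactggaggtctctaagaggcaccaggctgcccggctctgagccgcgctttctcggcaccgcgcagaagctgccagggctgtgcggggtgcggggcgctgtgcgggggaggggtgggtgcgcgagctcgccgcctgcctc
Grik3: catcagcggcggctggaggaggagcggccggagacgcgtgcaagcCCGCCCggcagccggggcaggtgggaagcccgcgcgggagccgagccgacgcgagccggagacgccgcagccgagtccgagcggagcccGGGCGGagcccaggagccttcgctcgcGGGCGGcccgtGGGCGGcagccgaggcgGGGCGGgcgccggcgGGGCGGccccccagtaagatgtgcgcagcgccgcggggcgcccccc
The stretch before Grik3 held 6 boxes and 42 CpG dinucleotides at a GC content of 82.0%, whereas that before Gria2 held 0 boxes and 19 CpG at 64.8% GC. The other matched stretches held 0 boxes and 16 CpG (Gria4), 0 and 20 (Grik2), 1 and 36 (Grik4) and 2 and 8 (Grik5). Of these members, Gria4, Grik2 and Grik5 were present in satellite glia, while Grik4 was close to background there. Whether boxes or CpG go with the level in glia was not tested. Of 32851 promoter stretches of the same length, 32.7% held the box on either strand, and the median stretch had 6 CpG. These are descriptions of the letters and do not show that a factor binds there.

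Levels are given as CPM, a gene's UMIs scaled to 1000000 UMIs summed over the cells of a class in one library, with an exact 95% Poisson interval in parentheses. A CPM is thus a share of the UMIs of a class and not an amount per cell, and neurons hold far more UMIs per cell than glia. These intervals hold only the error of counting, since how far mice differ could not be seen. Values of different genes were not compared, as UMI counts depend on how well each RNA is captured. In what follows, the first value is from the control library and the second from the CFA library, and a fold between classes carries an exact interval conditional on both counts.

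Gria1, which gives the AMPA subunit best known for moving in and out of synapses, was highest in peptidergic C neurons, almost missing from Mrgpra3 neurons and low in cLTMR. Sstr2+ neurons held 81.7 CPM (72.9 to 91.3) in the first and 121 CPM (107 to 136) in the second library, and Sstr2- neurons 56.0 CPM (51.6 to 60.7) and 64.6 CPM (57.3 to 72.6). The level in Sstr2+ neurons was 1.46-fold (1.27 to 1.68) that in Sstr2- neurons in control and 1.87-fold (1.58 to 2.22) in CFA. Nefh peptidergic neurons, of which there were 6 and 5, had 39.8 and 26.9 CPM, and 1 of the CFA cells held 84.6% of its class's Gria1 UMIs. Mrgprd neurons were lower than peptidergic C neurons, with 24.7 CPM (21.8 to 27.9) and 29.35 CPM (24.2 to 35.3). Trpm8 neurons followed with 14.3 and 12.8 CPM, Nefh A-fibre neurons with 16.0 and 13.5 CPM, and these neighbours in the order did not differ beyond counting error. In Mrgpra3 neurons 8 UMIs were found among control cells (2.24 CPM) and 0 among CFA cells, which allows up to 3.95 CPM. Sst/Nppb neurons had 4 and 1 UMIs. cLTMR had 2.97 and 6.05 CPM, and the level in Mrgprd neurons was 8.30-fold (4.67 to 16.3) that of cLTMR in control and 4.85-fold (2.77 to 9.16) in CFA. At least 1 Gria1 UMI was found in 86 of 96 control Sstr2+ neurons (89.6%) and in 61 of 63 CFA ones (96.8%), at median depths of 35895 and 33844 UMIs. In immune cells, which should lack the gene, the shares were 0 of 290 (which allows a share of up to 1.03%) and 1 of 200 cells (0.5%), at median depths of 2015 and 1618 UMIs. When neurons were thinned to 5000 UMIs each, the shares in Sstr2+ neurons were 31.25% (22.2 to 41.5) and 47.6% (34.9 to 60.6).

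Gria2, the subunit that limits calcium entry, had another order, with Trpm8 neurons first in both libraries. They held 90.55 CPM (79.3 to 102.9) and 103 CPM (84.3 to 124.8), which was 1.84-fold (1.57 to 2.15) and 2.56-fold (1.99 to 3.28) the level in Sstr2- neurons. Sstr2- neurons had 49.3 and 40.3 CPM, Nefh A-fibre neurons 53.3 and 40.5 CPM, and Nefh peptidergic neurons 41.7 and 41.4 CPM, and neighbours among these 3 classes did not differ beyond counting error. Mrgprd neurons had 27.2 and 26.5 CPM, and Mrgpra3 neurons 16.6 and 22.4 CPM. Sstr2+ neurons, the highest class for Gria1, had 22.8 and 20.7 CPM of Gria2, below Sstr2- neurons by 2.17-fold (1.72 to 2.75) and 1.95-fold (1.40 to 2.76). The lowest values were 14.9 CPM in control cLTMR and 3.95 CPM in CFA Sst/Nppb neurons, where 2 UMIs were counted beside 14 (23.8 CPM) in control.

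**Figure D1:**
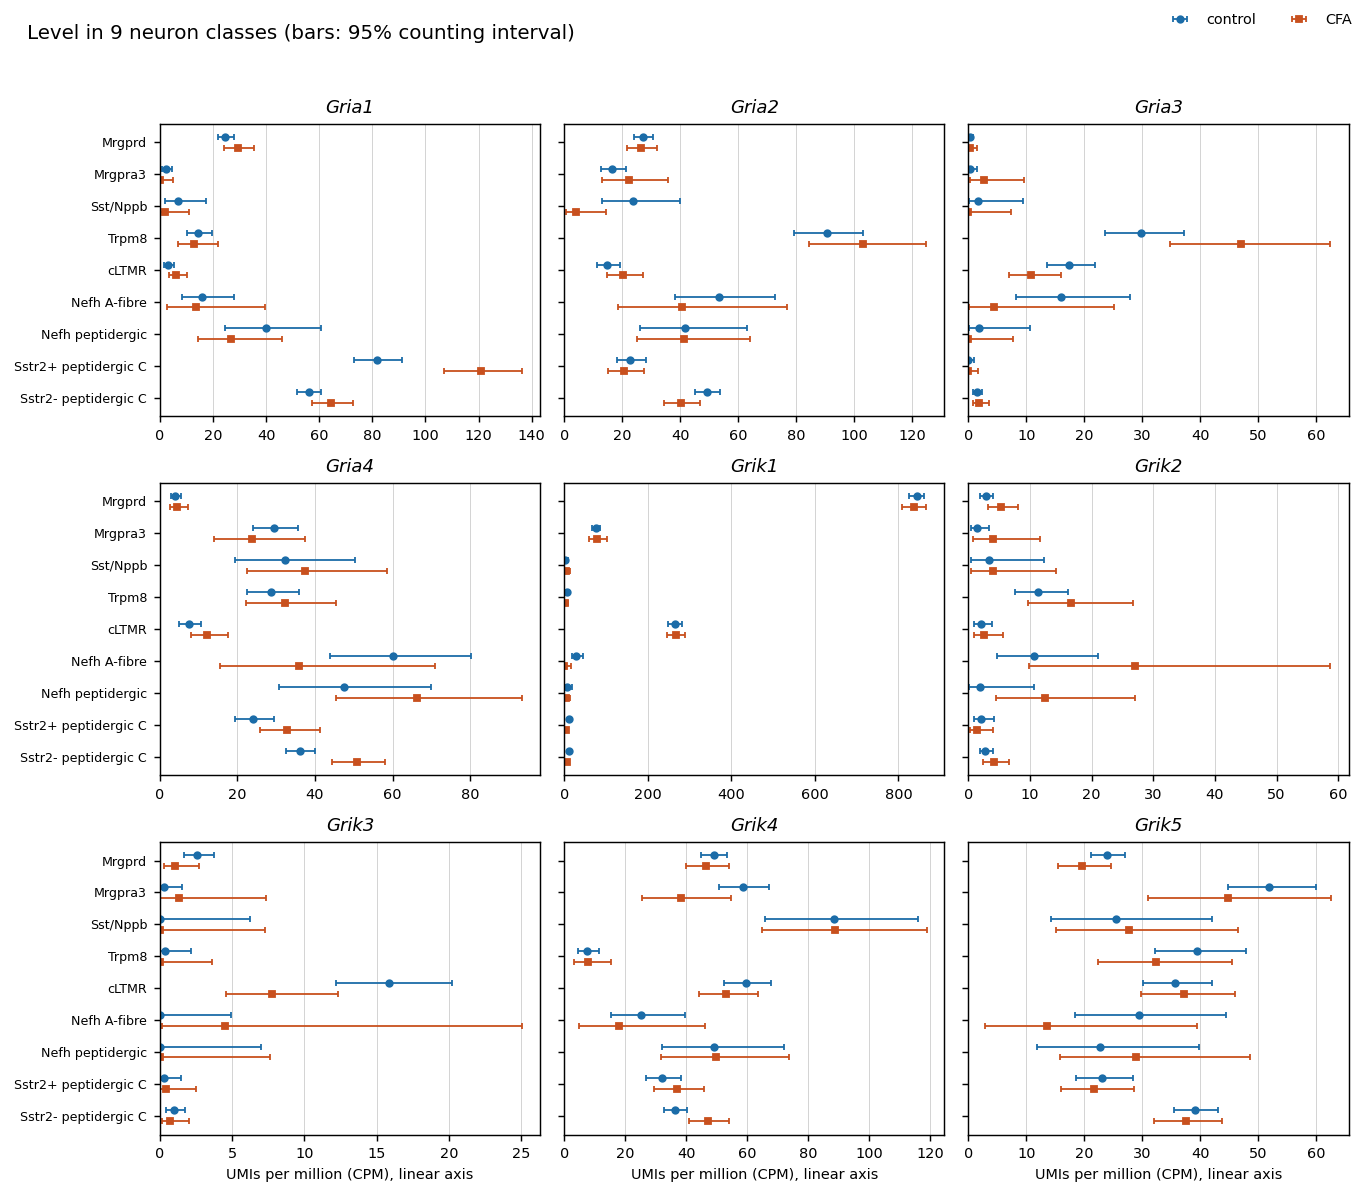
Level in CPM (x axis, linear, starting at 0 and scaled for each gene) of the 9 members in the 9 neuron classes (y axis), with blue circles for the control and orange squares for the CFA library and bars for the exact 95% Poisson interval. Grik1 stands out in Mrgprd neurons and cLTMR, Gria1 in Sstr2+ neurons, Gria2 and Gria3 in Trpm8 neurons and Grik4 in Sst/Nppb neurons, in both libraries.

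Because the 2 genes ran in different directions across classes, the share of Gria1 in the sum of Gria1 and Gria2 UMIs was compared between classes, which cancels the depth of a class but not the capture of each RNA. The share was 78.2% (73.8 to 82.1) and 85.4% (81.0 to 89.1) in Sstr2+ neurons, the highest of the 9 classes in both libraries. It was 53.2% (50.2 to 56.1) and 61.6% (56.9 to 66.0) in Sstr2- neurons and 47.5% (43.3 to 51.8) and 52.6% (45.6 to 59.4) in Mrgprd neurons. Trpm8 neurons had 13.7% (9.80 to 18.3) and 11.02% (5.998 to 18.1), and Mrgpra3 neurons 11.9% (5.30 to 22.2) of 67 UMIs and 0 of 17 UMIs. The intervals of Sstr2+ neurons lay apart from those of every other class with more than 100 UMIs of the pair, in each library.

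**Figure D2:**
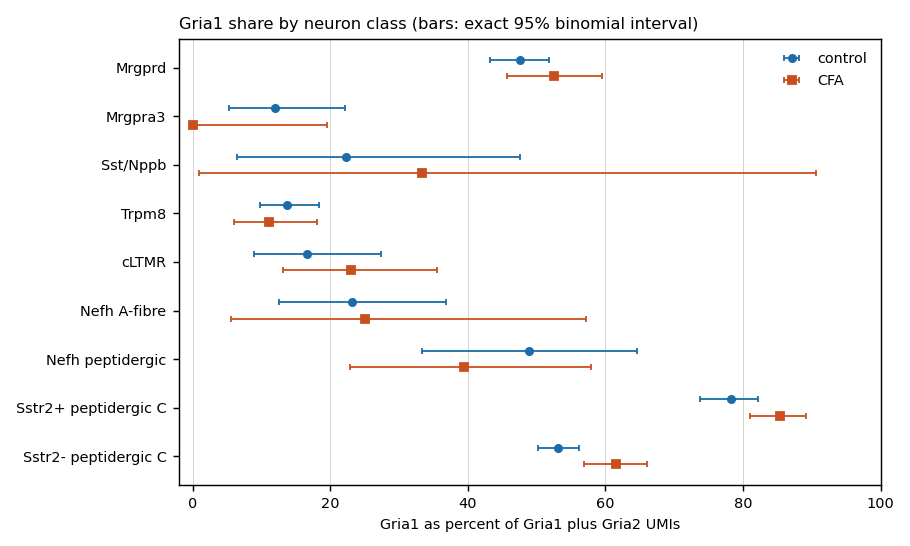
Gria1 as percent of the Gria1 and Gria2 UMIs (x axis) in the 9 neuron classes (y axis), with blue circles for the control and orange squares for the CFA library and bars for the exact 95% binomial interval. The share is highest in Sstr2+ neurons, at 78.2% and 85.4%, and lowest in Mrgpra3 neurons, at 11.9% and 0 of 17 UMIs, next to Trpm8 neurons at 13.7% and 11.02%.

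Gria3, another AMPA subunit, was concentrated in few neuron classes. Trpm8 neurons had 29.8 CPM (23.5 to 37.2) and 47.1 CPM (34.7 to 62.5), and cLTMR 17.35 CPM (13.5 to 21.9) and 10.8 CPM (6.99 to 15.9). No Gria3 UMI was counted in the 96 control and 63 CFA Sstr2+ neurons, and Mrgprd neurons had 3 and 1 UMIs. The Trpm8 level exceeded that of cLTMR by 1.72-fold (1.23 to 2.41) and 4.36-fold (2.64 to 7.38). Nefh A-fibre neurons had 16.0 and 4.50 CPM, from 12 UMIs and 1 UMI, and the other classes stayed at 2.63 CPM or less. Gria4, the subunit known for fast channels, was broad, and the classes where it was low were Mrgprd neurons, at 3.99 CPM (2.87 to 5.39) and 4.46 CPM (2.60 to 7.13), and cLTMR, at 7.43 and 12.1 CPM. The highest point estimate of Gria4 was in Nefh A-fibre neurons among control cells (60.0 CPM, 43.8 to 80.3) and in Nefh peptidergic neurons among CFA cells (66.2 CPM, 45.3 to 93.5), classes of 5 to 15 cells that did not differ from the next in order beyond counting error. Sstr2- neurons had 36.1 and 50.85 CPM of Gria4, which was 9.05-fold (6.57 to 12.8) and 11.4-fold (6.97 to 19.9) the level in Mrgprd neurons. Between these lay Sst/Nppb (32.3 and 37.5 CPM), Mrgpra3 (29.5 and 23.7 CPM), Trpm8 (28.6 and 32.4 CPM) and Sstr2+ neurons (24.1 and 32.8 CPM), and neighbours among these in the control order did not differ beyond counting error. Mrgprd neurons were thus the lowest class for Gria4 in both libraries and among the lowest for Gria3.

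Grik1, the kainate subunit long tied to small sensory neurons, was concentrated in 3 neuron classes. Mrgprd neurons held 843 CPM (826 to 861) and 837 CPM (808 to 866), which was 85.1% and 81.5% of all Grik1 UMIs in gated neurons. cLTMR came next with 265 CPM (249.5 to 281.5) and 268 CPM (247 to 289.9), followed by Mrgpra3 neurons with 75.75 CPM (67.0 to 85.3) and 79.0 CPM (60.3 to 101.7). Each of these steps exceeded counting error in both libraries, at 3.18-fold (2.98 to 3.39) and 3.12-fold (2.87 to 3.41) from cLTMR to Mrgprd neurons, and 3.50-fold (3.06 to 4.01) and 3.39-fold (2.60 to 4.50) from Mrgpra3 neurons to cLTMR. A Grik1 UMI was found in 155 of 156 control Mrgprd neurons and in 60 of 61 CFA ones. Over single cells the level had a median of 845 CPM and quartiles of 691.5 and 997 CPM in control, and a median of 884 CPM and quartiles of 691 and 1054 CPM in CFA. At 5000 UMIs per neuron, 96.1% (91.8 to 98.6) and 96.7% (88.6 to 99.6) of Mrgprd neurons and 65.7% (53.4 to 76.6) and 66.7% (51.0 to 80.0) of cLTMR had a Grik1 UMI, with 1 control Mrgprd neuron and 1 CFA cLTMR too shallow to enter.

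Outside these 3 classes the CPM of Grik1 was no higher than in the highest class of background cells. Sstr2+ neurons had 11.3 and 4.05 CPM, Sstr2- neurons 12.5 and 6.64 CPM and Trpm8 neurons 7.74 and 2.95 CPM, beside 18.8 CPM (10.03 to 32.2) and 5.45 CPM (0.660 to 19.7) in immune cells, 30.2 and 11.5 CPM in endothelial cells and 16.1 and 14.1 CPM in fibroblasts. Neurons are far deeper than background cells, and a Grik1 UMI was found in 85 of 262 control Sstr2- neurons and in 11 of 290 control immune cells, so equal CPM does not settle whether these neurons express the gene, which was not tested. The 29.3 CPM of control Nefh A-fibre neurons came largely from 1 cell, which held 68.2% of the 22 UMIs, and the CFA cells of that class had 0.

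Of the other subunits that form channels by themselves, Grik2 and Grik3 were low in neurons. Grik2 had 11.2 CPM (7.52 to 16.1) and 16.7 CPM (9.72 to 26.7) in Trpm8 neurons, which was 3.94-fold (2.28 to 6.80) and 3.19-fold (1.57 to 6.40) the level in Mrgprd neurons. Nefh A-fibre neurons had 10.7 and 27.0 CPM, from 8 and 6 UMIs, and 1 CFA cell held 3 of the latter. In the peptidergic C, Mrgpra3 and cLTMR classes Grik2 was between 1.35 and 4.12 CPM. Grik3 was found mainly in cLTMR, at 15.9 CPM (12.2 to 20.3) and 7.78 CPM (4.61 to 12.3), which held 61.5% and 64.3% of the Grik3 UMIs of gated neurons. The level in cLTMR was 6.19-fold (3.89 to 10.1) and 7.42-fold (2.45 to 30.1) that in Mrgprd neurons, which had 2.56 and 1.05 CPM. The other 7 classes had at most 10 Grik3 UMIs in a library.

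Grik4 and Grik5, the high-affinity partners, were spread more widely. Grik4 was highest in Sst/Nppb neurons, with 88.4 CPM (66.0 to 115.9) and 88.9 CPM (64.8 to 118.9), and a UMI was present in 13 of 13 control and 9 of 10 CFA cells. The level exceeded that of cLTMR by 1.48-fold (1.07 to 2.00) and 1.67-fold (1.16 to 2.37). cLTMR (59.7 and 53.2 CPM), Mrgpra3 neurons (58.6 and 38.2 CPM) and Mrgprd neurons (49.2 and 46.6 CPM) followed. Nefh peptidergic neurons had 49.3 and 49.7 CPM, Sstr2- neurons 36.4 and 47.2 CPM, Sstr2+ neurons 32.2 and 36.9 CPM and Nefh A-fibre neurons 25.3 and 18.0 CPM. Trpm8 neurons were lowest, at 7.35 CPM (4.43 to 11.5) and 7.85 CPM (3.39 to 15.5), below Mrgprd neurons by 6.69-fold (4.24 to 11.2) and 5.94-fold (2.95 to 14.0). Grik5 differed least between classes, from 51.9 CPM (44.7 to 59.9) and 44.75 CPM (31.0 to 62.5) in Mrgpra3 neurons to 22.7 CPM in control Nefh peptidergic and 13.5 CPM in CFA Nefh A-fibre neurons. Sstr2- neurons (39.1 and 37.6 CPM) exceeded Sstr2+ neurons (23.0 and 21.6 CPM) by 1.70-fold (1.34 to 2.16) and 1.74-fold (1.25 to 2.45), the same direction as for Gria2 and opposite to Gria1. Sst/Nppb neurons, of which there were 13 and 10, combined the highest Grik4 with 1 and 2 UMIs of Grik1, 2 and 2 of Grik2 and 0 and 0 of Grik3. In CPM, Grik2 stood there at 3.40 and 3.95, beside 2.85 and 5.24 in Mrgprd neurons. The zeros of Grik3 allow up to 5.10 and 5.93 CPM. These few counts thus do not show that the subunits that partner Grik4 are missing there. In Mrgprd neurons, cLTMR and Mrgpra3 neurons Grik4 stood beside Grik1.

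The class with the highest level was the same in both libraries for 7 of the 9 members, the exceptions being Gria4 and Grik2. Summed over the AMPA subunits, Trpm8 neurons had the most (163 and 195 CPM) and cLTMR the least in the control library (42.6 CPM). Summed over the kainate subunits the order was turned, with 922 and 909.6 CPM in Mrgprd neurons, 378 and 369 CPM in cLTMR and 66.2 and 59.9 CPM in Trpm8 neurons. This order follows Grik1. Each sum weights its subunits by how well their RNAs are captured, so it counts UMIs and does not measure amounts of receptor.

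In glia another set of members was present. Grik3 was highest in satellite glia, the cells wrapped around neuronal cell bodies, at 117.8 CPM (103 to 133.8) and 86.1 CPM (65.2 to 111.5). This was 41.8-fold (33.0 to 53.1) and 48.3-fold (30.2 to 78.8) the level over all gated neurons. Grik3 in satellite glia was 7.43-fold (5.61 to 9.95) and 11.1-fold (6.415 to 20.0) that in cLTMR, the neuron class with the most. It was found in 189 of 911 control (20.7%) and 45 of 317 CFA satellite glia (14.2%), at median depths of 2036 and 1914 UMIs, and in 0 of 290 and 0 of 200 immune cells. In cLTMR, at median depths of 54270 and 49164 UMIs, it was found in 34 of 70 and 15 of 46 cells. The folds over neurons thus compare shares of UMIs and do not mean more Grik3 UMIs per cell in satellite glia. Thinned to 500 UMIs per cell, 5.82% (4.39 to 7.54) and 3.47% (1.75 to 6.12) of satellite glia had a Grik3 UMI. Non-myelinating Schwann cells, which hold thin axons, had 61.3 CPM (41.4 to 87.5) and 64.4 CPM (35.2 to 108.1) of Grik3, while myelinating Schwann cells had 3.91 and 6.02 CPM. Satellite glia exceeded the non-myelinating Schwann cells by 1.92-fold (1.31 to 2.91) in control, whereas in CFA the interval of this fold (0.735 to 2.59) held 1.

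Gria3 was also found in glia, with 89.95 CPM (65.4 to 120.8) and 119.7 CPM (78.2 to 175.4) in non-myelinating Schwann cells. Satellite glia had 52.2 CPM (42.7 to 63.2) and 58.9 CPM (41.9 to 80.5), and myelinating Schwann cells 28.8 and 33.1 CPM. The level in satellite glia was 10.7-fold (8.32 to 13.7) and 10.9-fold (7.25 to 16.1) that over all gated neurons, which had 4.88 and 5.41 CPM. Against Trpm8 neurons, the neuron class with the most Gria3, it was 1.75-fold (1.29 to 2.38) in control. In CFA it was 1.25-fold, and the interval (0.797 to 1.95) held 1. These folds again compare shares of UMIs. A Gria3 UMI was found in 88 of 911 and 35 of 317 satellite glia, and in 32 of 49 and 15 of 24 of the deeper Trpm8 neurons. Fibroblasts, one of the background classes, also had 27.1 CPM (17.8 to 39.4) and 34.3 CPM (20.0 to 54.9) of Gria3, above the 10.1 and 5.45 CPM of immune cells. Grik2 had the same order, with 59.3 and 59.8 CPM in non-myelinating Schwann cells, 25.3 and 30.2 CPM in satellite glia and 3.25 and 5.16 CPM in neurons, and 1.45 and 0 CPM in immune cells. The first step was 2.34-fold (1.43 to 3.76) in control and 1.98-fold in CFA, where the interval (0.906 to 4.19) held 1. In CFA the interval of satellite glia (18.4 to 46.6) also overlapped that of Trpm8 neurons (9.72 to 26.7), and Nefh A-fibre neurons had 27.0 CPM.

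Gria4 was in satellite glia at 41.7 CPM (33.3 to 51.7) and 48.3 CPM (33.0 to 68.2), and in myelinating Schwann cells at 3.91 and 2.26 CPM. Oligodendrocyte-like cells, of the kind that myelinates the central part of the root, had 28.4 CPM (10.4 to 61.7) and 59.1 CPM (35.0 to 93.4) of Gria4. Grik5 was as high in satellite glia (45.2 and 43.8 CPM) and myelinating Schwann cells (38.1 and 29.35 CPM) as in many neurons. Among the background cells Grik5 was at 0 and 5.45 CPM in immune cells, 11.6 and 3.82 CPM in endothelial cells and 18.1 and 28.25 CPM in fibroblasts, the last close to myelinating Schwann cells in the CFA library. Gria1, Gria2 and Grik4 were close to background in satellite glia, at 0.994 and 1.51 CPM, 2.98 and 4.53 CPM, and 2.48 and 1.51 CPM, from 6 UMIs at most in a library. Of the AMPA subunits, Gria1 and Gria2 were thus lower in satellite glia than over all neurons, whereas Gria3 was higher there, as was Gria4, by 1.90-fold (1.5 to 2.38) and 1.69-fold (1.14 to 2.42). For Gria4 this did not hold against each neuron class. Nefh A-fibre neurons had 60.0 and 36.0 CPM, Nefh peptidergic neurons 47.4 and 66.2 CPM and Sstr2- neurons 36.1 and 50.85 CPM.

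Grik1 in satellite glia (14.9 and 6.04 CPM) and myelinating Schwann cells (25.3 and 9.03 CPM) was no higher than in the highest class of background cells. In oligodendrocyte-like cells it was 28.4 CPM (10.4 to 61.7) and 62.4 CPM (37.6 to 97.4), from 6 and 19 UMIs, and in the CFA library this interval lay above that of immune cells.

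**Figure D3:**
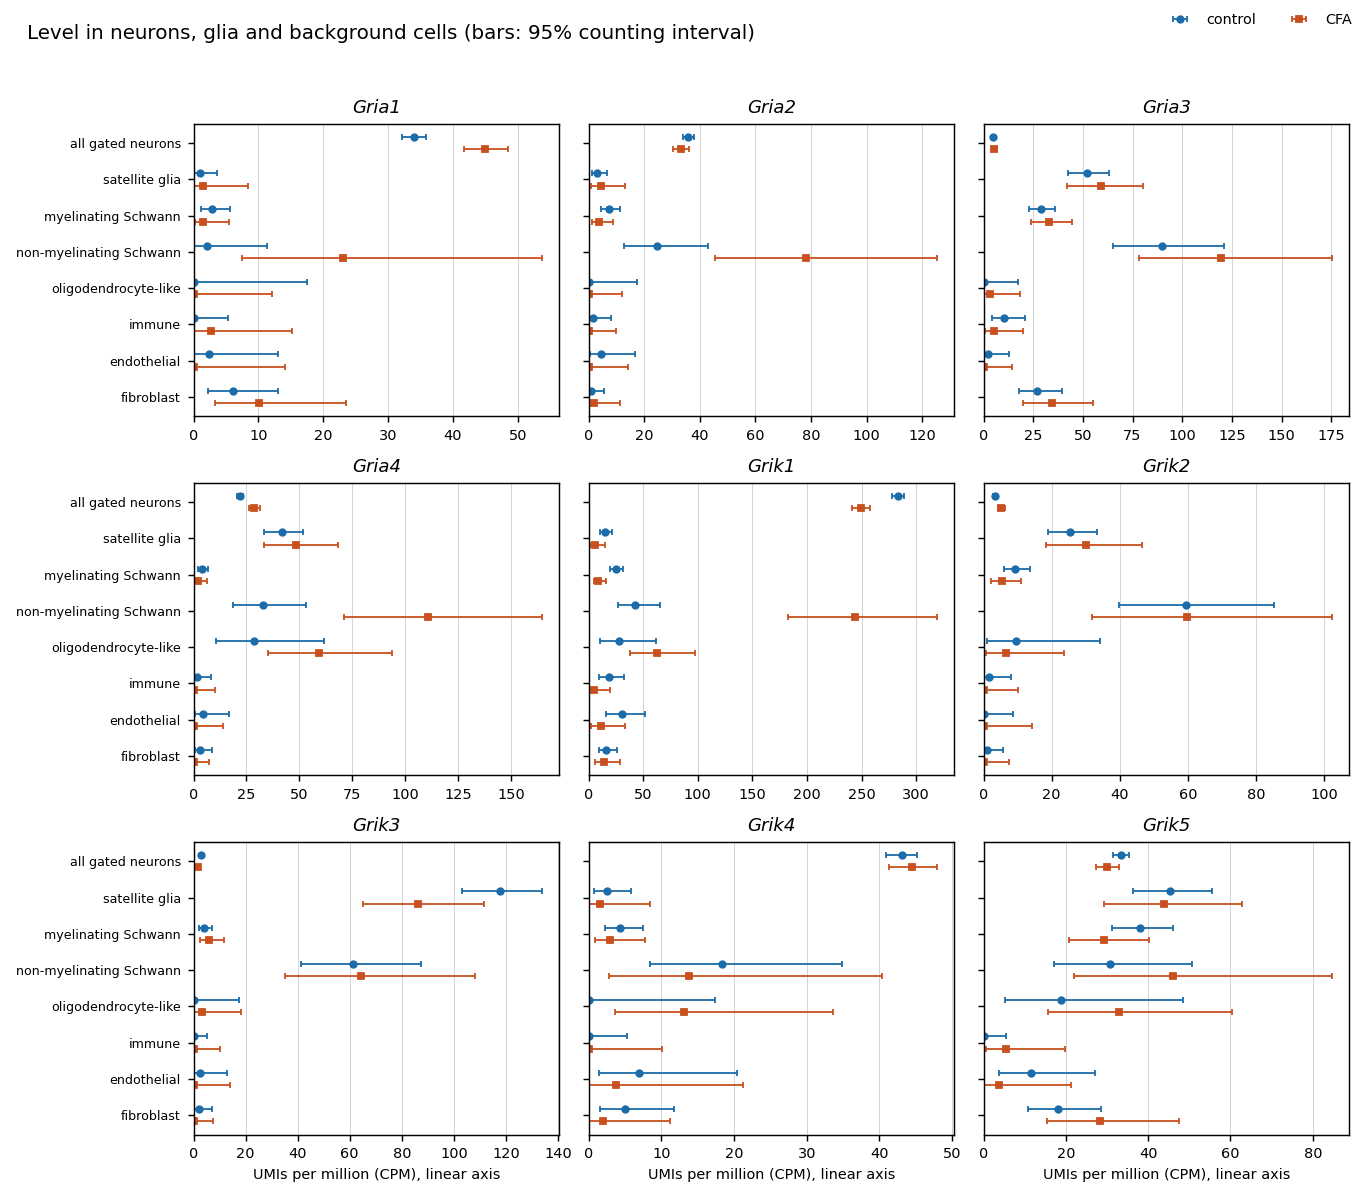
Level in CPM (x axis, linear, starting at 0 and scaled for each gene) of the 9 members in all gated neurons, the 4 glial classes and 3 background classes (y axis), with blue circles for the control and orange squares for the CFA library and bars for the exact 95% Poisson interval. Gria1 and Grik4 are higher in neurons than in satellite glia and Schwann cells, Gria3, Grik2 and Grik3 are highest in satellite glia or non-myelinating Schwann cells, and the CFA non-myelinating Schwann class, which holds a few cells with neuronal RNA, is also high for Gria2 (78.3 CPM), Gria4 and Grik1.

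To ask how the subunits stood 7 days after CFA, the ratio of the CFA to the control library was taken for each class. A ratio past 1.5-fold in a gene with at least 50 counts over both libraries was counted, without a test. Over all gated neurons, 1 of the 9 members (Grik2) was past the fold on the higher side, where 4.19% of 14370 genes were, and 1 (Grik3) on the lower side, where 4.89% were. The median log2 ratio of the 9 members was 0.05, beside -0.01 for all genes tested. Grik2 went with 3.25 CPM in control and 5.16 CPM in CFA neurons (log2 ratio 0.66, 0.24 to 1.08), and Grik3 with 2.82 and 1.78 CPM (log2 ratio -0.66, -1.32 to -0.05). Both genes were at low levels, with 120 and 81 UMIs and 104 and 28 UMIs. With every cell weighted equally, neither was past the fold, with log2 ratios of 0.35 and -0.20. With neurons thinned to 5000 UMIs, which leaves still fewer counts, the ratio of Grik3 turned to 0.18.

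The AMPA subunits with more counts differed less. Control neurons held 34.0 CPM (32.1 to 35.9) of Gria1, and CFA neurons 45.0 CPM (41.7 to 48.5), so that the log2 ratio was 0.41 (0.27 to 0.54). For Gria4 the levels were 22.0 CPM (20.5 to 23.5) and 28.6 CPM (26.1 to 31.4), and the log2 ratio was 0.38 (0.21 to 0.55). Sstr2+ neurons were 96 of 712 control and 63 of 350 CFA neurons and held 24.9% and 38.05% of the Gria1 UMIs, and with the classes given the same weight in both libraries the log2 ratio of Gria1 was 0.30 and that of Gria4 0.34. Within Sstr2+ neurons the log2 ratio of Gria1 was 0.57 (0.325 to 0.81), just inside the 1.5-fold line at 0.585, and in Sstr2- neurons 0.20 (-0.005 to 0.41). The interval of Gria4 in Sstr2- neurons, 0.49 (0.25 to 0.74), also lay above 0. Over all gated neurons, Gria2 (log2 ratio -0.10, -0.25 to 0.04), Gria3 (0.15, -0.24 to 0.53), Grik4 (0.05, -0.08 to 0.18) and Grik5 (-0.15, -0.31 to 0.001) had intervals that held 0. Within Sstr2- neurons the interval of Gria2 (-0.29, -0.55 to -0.04) lay below 0 and that of Grik4 (0.38, 0.12 to 0.62) above it, while that of Grik5 held 0.

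Grik1 was all but equal between the libraries where it is high. The log2 ratio was -0.01 (-0.07 to 0.05) in Mrgprd neurons, 0.01 (-0.13 to 0.16) in cLTMR and 0.06 (-0.37 to 0.47) in Mrgpra3 neurons. Over all gated neurons it was -0.18 (-0.24 to -0.13), and with equal class weights -0.02. Mrgprd neurons were 156 of 712 control and 61 of 350 CFA neurons, and the part of their share in this ratio was not tested. Grik1 was past the fold on the lower side in Sstr2+ neurons (log2 ratio -1.48, where 5.58% of genes were lower), in Sstr2- neurons (-0.91, where 5.41% were) and in myelinating Schwann cells (-1.48, where 8.92% were). With neurons thinned, the value in Sstr2+ neurons was -0.39, within the fold. Among the background cells Grik1 had 18.8 and 5.45 CPM in immune cells, from 13 and 2 UMIs. Endothelial cells had 30.2 and 11.5 CPM, from 13 and 3 UMIs, and fibroblasts 16.1 and 14.1 CPM, from 16 and 7 UMIs. The point values were lower in the CFA library in the first 2 and nearly equal in the last. The intervals of all 3 ratios held 0, and the counts were too few for a call. Tubb3 was lower in all 3. The part of free RNA in the Grik1 ratios was not tested.

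In non-myelinating Schwann cells Grik1 was past the fold on the higher side, with 42.9 CPM (26.6 to 65.6) and 244 CPM (183 to 319) and a log2 ratio of 2.51, where 12.8% of genes were higher. The cells with 2 or more Grik1 UMIs, 5 of the 206 CFA cells, held 44 of its 53 UMIs, and each also had at least 15 UMIs of the neuronal RNAs Meg3 and Snhg11, while the median of the other cells was 0. In the control library 3 such cells of 433 held 10 of 21 UMIs, with at least 8 UMIs of Meg3 and Snhg11 each. With the class set by Scn7a alone, an alternative chosen after the data were seen, the levels were 23.3 and 38.1 CPM, a log2 ratio of 0.71. In the same cells Gria2 (24.5 and 78.3 CPM) and Gria4 (32.7 and 110.5 CPM) stood at 7.75 and 38.1 CPM and at 18.1 and 6.35 CPM under that rule, whereas Gria3 (72.4 and 101.6 CPM), Grik2 (46.5 and 76.2 CPM) and Grik3 (64.6 and 57.1 CPM) kept levels near those given above.

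**Figure D4:**
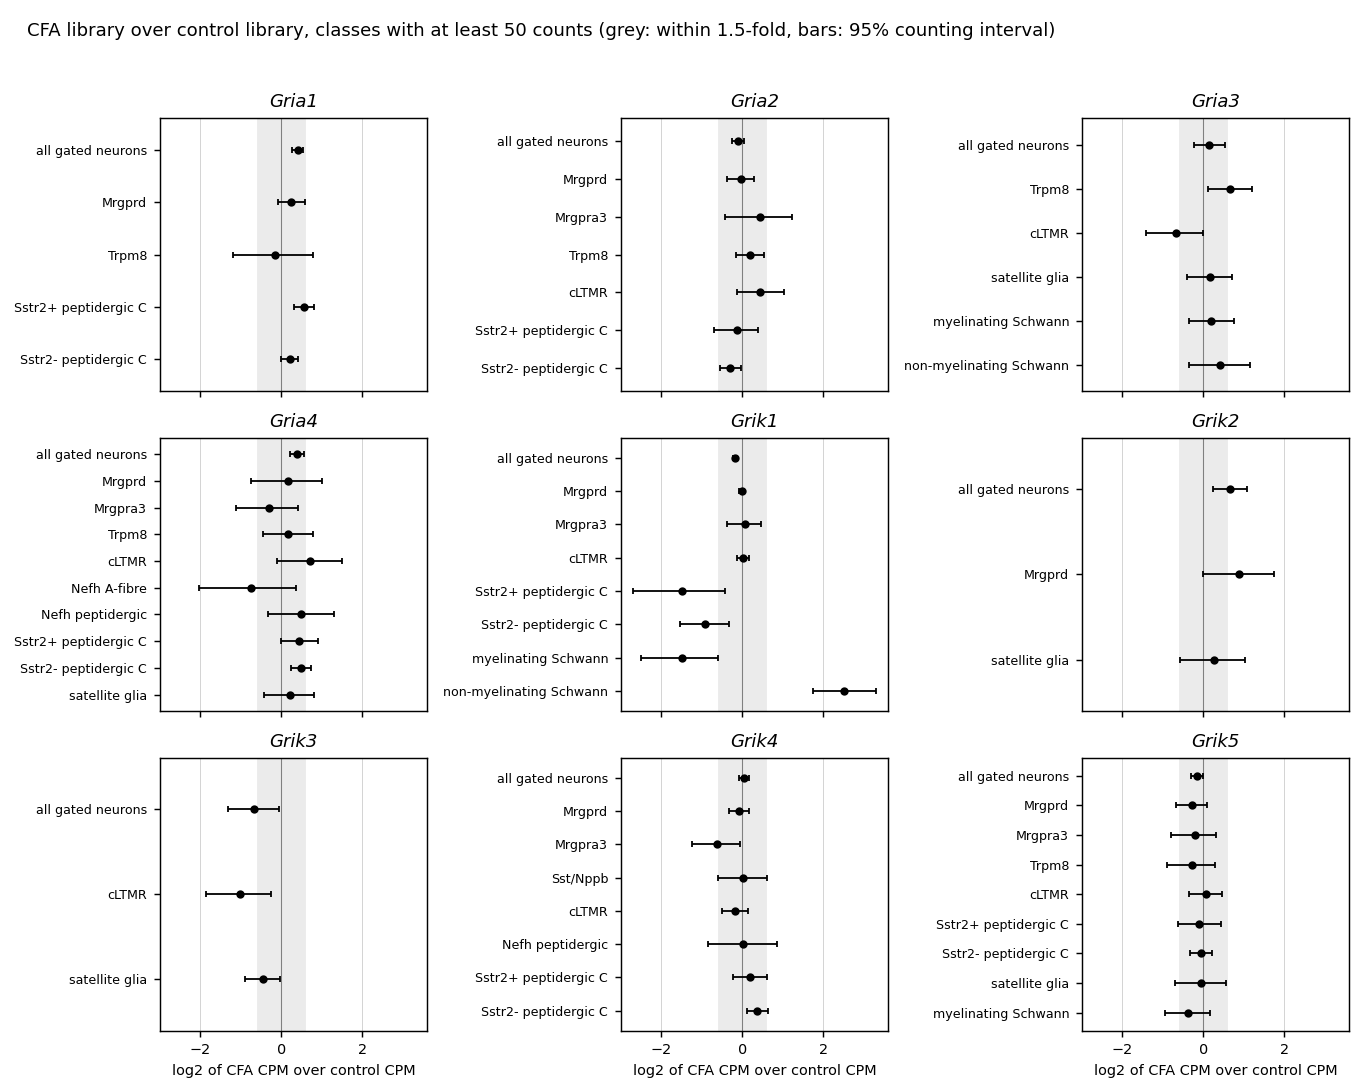
Log2 ratio of the CFA over the control level (x axis) of each member in the classes where it had at least 50 counts over both libraries (y axis), with bars for the exact 95% interval of counting error and a grey band for ratios within 1.5-fold. Most points lie in the band, and Grik1 in non-myelinating Schwann cells, at 2.51, is the farthest from 0.

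In the other classes single members were past the fold. In Mrgprd neurons Grik2 was higher (2.85 and 5.24 CPM, log2 ratio 0.88, -0.01 to 1.74, where 2.80% of 10744 genes were higher), and with cells weighted equally the log2 ratio was 0.14. In cLTMR Gria4 was higher (0.70, where 3.58% were) and Gria3 (-0.68) and Grik3 (-1.03) were lower, where 5.21% were. In Trpm8 neurons Gria3 was higher (0.66, where 3.58% of 8188 genes were), in Mrgpra3 neurons Grik4 was lower (-0.62, where 14.0% were past the fold in either direction) and in Nefh A-fibre neurons Gria4 was lower (-0.74, where 17.3% were). The CFA library had 12 Mrgpra3 and 6 Nefh A-fibre neurons, and a single Nefh A-fibre cell held 62.5% of the 8 Gria4 UMIs of its class. The direction of Grik3 in cLTMR and of Gria4 in Nefh A-fibre neurons turned when neurons were thinned to 5000 UMIs, to log2 ratios of 0.22 and 0.32. Thinning leaves few UMIs, as Grik3 was then found in 5 of 70 control and 4 of 45 CFA cLTMR. The minimum of 50 counts was not asked of thinned counts, so these turns rest on little. Gria3 in Trpm8 neurons was past the fold in 8 of 10 alternatives (0.44 with thresholds halved), Grik4 in Mrgpra3 neurons in 6 of 10 (-0.33 with thresholds doubled) and Gria4 in cLTMR in 9 of 10 (0.55 with thresholds halved). Grik4, the 1 member tested in Sst/Nppb neurons, and the 2 tested in Nefh peptidergic neurons were within the fold, which 13.4% and 16.2% of genes had passed in either direction. In satellite glia 0 of the 5 members with 50 counts were past the fold, where 16.0% of 6838 genes were in either direction. Grik3 came closest there, with 117.8 and 86.1 CPM, at -0.45 (-0.90 to -0.03) on the log2 scale, and this value ran from -0.83 with the stricter cell filter to 0.04 with cells thinned to 500 UMIs, past the fold in 2 of 10 alternatives. Gria3, Gria4, Grik2 and Grik5 lay between -0.05 and 0.25.

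Partners of the receptors were counted on lists of 62 genes, all of which were in the files. In gated neurons 51 of them had at least 50 counts, and 7 were past the fold on the higher side and 0 on the lower side, beside 4.19% and 4.89% of all genes. All 7 were at 5.73 CPM or less in both libraries. Of the 16 auxiliary subunits of AMPA receptors, 15 were tested and 3 were higher, with a median log2 ratio of 0.06 over the list. They were Cacng4, a TARP (2.87 and 5.09 CPM, log2 ratio 0.83, 0.39 to 1.26), its relative Cacng8 (0.868 and 1.34 CPM, log2 ratio 0.62, -0.244 to 1.462) and the export factor Cnih3 (2.68 and 4.58 CPM, 0.77, 0.313 to 1.224). The interval of Cacng8, from 32 and 21 UMIs, held 0. Among the 4 partners of kainate receptors 2 were tested, and Neto1 was just past the fold (2.79 and 4.201 CPM, 0.59), whereas Neto2 was not (26.5 and 34.4 CPM, 0.37).

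Of the 14 scaffold, assembly and clustering genes all were tested and 0 were past the fold, with a median of -0.14. The neuronal pentraxin Nptx1, which clusters AMPA receptors, was closest (34.0 and 49.6 CPM, 0.55). Of the 3 RNA editing enzymes 2 were tested and neither was past the fold, with Adarb1, the enzyme known to edit the pore site of Gria2, at 30.45 and 22.0 CPM (log2 ratio -0.47, -0.65 to -0.29). Of the 9 NMDA and delta subunits 5 were tested and 0 were past it, and Grin1, the NMDA subunit found in every NMDA receptor, had 94.4 and 94.6 CPM. Among the 8 metabotropic receptors 6 were tested, and Grm5 (1.03 and 1.65 CPM, 0.68, -0.095 to 1.441) and Grm8 (3.31 and 5.73 CPM, 0.79, 0.383 to 1.197) were higher. The interval of Grm5, from 38 and 26 UMIs, held 0. Of the 8 genes for glutamate release and uptake 7 were tested, and the glutamate transporter Slc1a1 was higher (0.651 and 1.72 CPM, 1.40), from 24 and 27 UMIs. In endothelial cells, a background class, Slc1a1 stood at 55.8 and 91.7 CPM, above its level in neurons.

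Some partners were highest in a class that was also high for a subunit, and others were not. Cnih2, which carries AMPA receptors to the surface, was highest in control Sstr2+ neurons (161 CPM) and in CFA Sstr2- neurons (151 CPM), Gsg1l in Trpm8 neurons (171 and 137 CPM), Neto1 in cLTMR (20.3 and 24.2 CPM) and Neto2 in Sst/Nppb neurons (74.8 and 144 CPM). By contrast, the AMPA auxiliary gene Cacng2 was highest in Mrgpra3 neurons (67.33 and 75.03 CPM), where Gria1 was almost missing. Olfm1, from the same list, was highest in cLTMR (1317 and 1330 CPM), the class with the least summed AMPA subunits in control. Neto1 stood at 0.09490 and 0 CPM in Mrgprd neurons, which held most Grik1 UMIs. Whether the partners as a set follow the subunits was not tested. In satellite glia Cacng4 had 217 and 234 CPM and the delta subunit gene Grid1 59.1 and 87.6 CPM, and the glutamate transporter Slc1a3 259 and 276 CPM. Of the 17 listed genes tested there, Slc17a6, a neuronal gene, was past the fold on the lower side (23.3 and 7.55 CPM, where 8.23% of genes were), beside 33.3 and 5.45 CPM of Slc17a6 in immune cells. In myelinating Schwann cells 13 were tested and 3 were lower (Neto2, Adar and Slc1a3), where 8.92% of genes were.

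For each member with at least 200 UMIs in neurons, the genes with the most similar level over the 9 classes were sought among 11378 genes, by the lower of the 2 libraries' Pearson's r of log2(CPM + 1). With 9 points that share libraries and depth, r is a description and carries no p-value. Grik1 was most like the potassium channel partner Kcnip2 (r of 0.96 and 0.96), Rspo2 (0.95 and 0.96) and Lypd6b (0.93 and 0.94). Gria1 was most like Svil (0.92 and 0.93), Ebf4 (0.89 and 0.93) and Zdhhc22 (0.88 and 0.93), and Gria3 most like Syndig1 (0.92 and 0.94), Ndufb7 and Sdr39u1. For Gria2 these were Klhl13, Prdx3 and Ndufs3, for Gria4 Ptprn, Mir100hg and E2f6, for Grik2 Gm14539, Atp5d and Ubfd1, and for Grik4 Tmem151b, Tle1 and Nedd4l. Grik5, the member with the flattest profile, had the lowest values, with Ift27 at 0.85 and 0.74. Grik3 had fewer than 200 UMIs in neurons and was not included.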

How the data were processed

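The members and gene lists were chosen with earlier results of these data known. Per the labels and the study's methods, the authors deposited whole-number UMI counts per gene and cell for each library, not normalized, after BD Rhapsody whole transcriptome capture. The submitters' processing notes name fastp and GRCm38, and the aligner was not given in the sources used here. The counts start where the pipeline had called cells and corrected UMIs, so free RNA and doublets remain in them, and they were not scaled by gene length.

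A cell was kept with 150 or more genes and no more than 25% of its counts mitochondrial. Neurons had at least 30 UMIs of Tubb3, Snap25, Uchl1 and Stmn2 together and at least 5 of Tubb3. Classes needed at least 5 UMIs of Mrgprd, 5 of Mrgpra3, 5 each of Sst and Nppb, 3 of Trpm8, or 5 of P2ry1 with 3 of Tafa4. Other neurons were split at 30 UMIs of Nefh, 100 of Calca and 3 of Sstr2. Non-neuronal cells had under 10 UMIs of the 4 neuronal genes. They needed 5 UMIs of Fabp7 (satellite glia), 2 of Prx, Ncmap, Drp2, Cldn19 and Egr2 with 10 of a further marker (myelinating Schwann cells), 3 of Scn7a, Cadm2, Csmd1 and L1cam (non-myelinating Schwann cells), 2 of Mog (oligodendrocyte-like cells), 3 of Ptprc, Tyrobp and Laptm5 (immune cells), 3 of Flt1 and Cldn5 (endothelial cells) or 10 of Dcn (fibroblasts). Cells in several classes or in none were left out. So were 129 control and 60 CFA cells that met neither the rule for neurons nor that for non-neuronal cells. That marker and 1 gene of the lists are not reported here. Doublets were kept, and 122 control and 25 CFA cells had a Scrublet score above 0.25.

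Within each class the counts of a library were added up and scaled to CPM. Intervals are exact at 95% (Poisson for levels, Clopper-Pearson for shares, conditional binomial for ratios) and cover counting error only. With 1 library per condition there was no test, and a zero was bounded at 3 counts. Named genes were the members, the lists and, for each member, the 3 genes most like it. The ratio intervals were tested on data simulated with counting error alone, which is the error they assume. That test therefore could not check the effect of UMIs clustered in single cells. Alternatives were other filters, thresholds doubled or halved, equal weights for cells or classes, thinning, deeper cells, doublets left out, totals without mitochondrial genes, centred ratios and other count minimums. Python 3.11.15, numpy 2.4.6, scipy 1.17.1, pandas 2.3.3, scanpy 1.11.5 and matplotlib 3.10.9 were used.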

Additional observations from a re-analysis of the deposited data

Results flagged for a closer look

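For 2 members the ratio between the libraries was past 1.5-fold in opposite directions in different neuron classes. Gria3 had a log2 ratio of 0.66 in Trpm8 neurons and -0.68 in cLTMR, with intervals that lay on opposite sides of 0 (0.11 to 1.20 and -1.40 to -0.005). Gria4 had a log2 ratio of 0.70 in cLTMR and -0.74 in Nefh A-fibre neurons, with intervals that both held 0 (-0.09 to 1.496 and -2.04 to 0.36). Of all genes tested, 3.58% were past the fold on the higher side in Trpm8 neurons. In cLTMR 3.58% were higher and 5.21% lower, and in Nefh A-fibre neurons 17.3% were lower. How many genes were split in this way between classes was not counted, so the 2 members have no share to be set beside. With 1 library per condition the difference between classes was not tested.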

How the results depend on the processing

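No paired analysis was possible because there was 1 library per condition, which also leaves the spread between mice unknown. The number of members past 1.5-fold in all gated neurons, 2, was 0 with every cell weighted equally and 1 with at least 200 counts asked, where Grik3 had too few counts. For the former the cause was not tested. It was 2 in the other alternatives, with Gria1 in place of Grik3 when cells were thinned. Log2 ratios past 1.5-fold changed sign for Grik3 in all gated neurons (0.18) and in cLTMR (0.22) and for Gria4 in Nefh A-fibre neurons (0.32) when cells were thinned, and for Gria4 in Nefh A-fibre neurons with thresholds halved (0.059). Among ratios within the fold, thinning also turned Gria2 in all gated neurons (-0.10 to 0.10) and Grik3 in satellite glia (-0.45 to 0.04), took Gria1 in Mrgprd neurons from 0.25 to 1.22, and Grik1 in Mrgprd neurons kept its sign in 7 of 10 alternatives, between -0.04 and 0.01. The number of members with the same highest neuron class in both libraries was between 5 and 9, beside 7 as reported. Of the other values recomputed, 562 moved by less than counting error and 46 by more, many of them levels in non-myelinating Schwann cells. Classes of 5 to 15 neurons and members with few UMIs limit what could be seen.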
